A study of Saccharomyces cerevisiae with 27 samples.

Results

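The genes described here are RPN4 and the genes for 32 subunits of the proteasome of the budding yeast Saccharomyces cerevisiae, 33 of the 5995 genes measured. They were taken by symbol, with no measured value in the rule, and comprise RPN4, 7 genes of the alpha ring, 7 of the beta ring, 6 ATPases of the base, 4 other base subunits and 8 lid subunits. Messenger RNA was sequenced in 27 libraries, 3 from each combination of 3 strains and 3 carbon sources. BY4741, a laboratory strain, carries his3Δ1, leu2Δ0, met15Δ0 and ura3Δ0, and the other strains carry these deletions too. LCY001 has CEN-HIS3 in addition, a HIS3 marker with a centromere sequence, and LCY002 has CEN-HIS3 with an added set of 40 genes for galactose, glycolytic and ergosterol enzymes, called the array here; the series title calls the carrier of the 40 genes a plasmid. None of the 33 genes is on the array. Per the labels, cells of each strain, the his3Δ1 strain BY4741 among them, grew overnight in medium without histidine, were diluted into glucose, galactose or ethanol with glycerol at an OD600 of 0.1 per ml, and were collected at an OD600 of about 1.0. The replicates were separate colonies of 1 strain, so the p-values measure the spread between colonies.

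The proteasome degrades proteins that carry ubiquitin. Its core particle is a barrel of alpha rings, which gate the entrance, and beta rings, which hold the active sites. The regulatory particle has a base, whose ATPases unfold and push the substrate into the core, and a lid, which removes ubiquitin. In yeast the zinc finger protein Rpn4 binds a short promoter sequence, the proteasome-associated control element (PACE), upstream of most subunit genes, and is itself a short-lived substrate of the proteasome.

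The PACE letters GGTGGCAAA were searched on both strands of the 300 bases before each start codon in build R64. They were found in 27 of the 32 subunit genes (84.4%) and in 72 of 5979 genes with such a window (1.2%). The stretches below belong to subunits whose levels are described further on; each is written 5′ to 3′ on the strand of its gene, with the element in capitals, read as TTTGCCACC where it lies on the other strand.

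PRE9: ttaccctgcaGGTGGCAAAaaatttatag
SCL1: cacacaccaaTTTGCCACCgtaaggatag
PRE2: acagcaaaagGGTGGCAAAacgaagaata
RPT2: gtttttctccGGTGGCAAAtgtctctttt
RPT4: aatagtggaaTTTGCCACCgaagggaaag
RPT6: atgcgagcgaGGTGGCAAAagttgtaata
RPN3: acgaaaaacaTTTGCCACCcaagaaagag
RPN5: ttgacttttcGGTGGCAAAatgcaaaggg
RPN11: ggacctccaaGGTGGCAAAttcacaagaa
RPN12: ctacacattaTTTGCCACCcattgaaatt

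In build R64 these stretches lie at chrVII:761223-761251 for PRE9 (plus strand), chrVII:475337-475365 for SCL1 (minus), chrXVI:732184-732212 for PRE2 (plus), chrIV:437906-437934 for RPT2 (plus) and chrXV:813802-813830 for RPT4 (minus). The others lie at chrVII:411352-411380 for RPT6 (minus), chrV:196843-196871 for RPN3 (plus), chrIV:190776-190804 for RPN5 (plus), chrVI:153259-153287 for RPN11 (plus) and chrVI:252398-252426 for RPN12 (plus). The element was on the strand of the gene in 19 subunit genes and on the other strand in 8. Its last base lay 76 bases (RPT6) to 175 bases (PUP3) before the start codon, with a median of 112. No match was in the windows of PRE5, PUP1, RPN10, RPN13 and RPN8, or in that of RPN4. The shorter letters GGTGGCAA, contained in PACE, were found in 97 genes (1.62%) and in the same number of subunit genes, 27. The Yap1 element TTACTAA was in PRE5, RPT2, RPN7 and RPN8 and in 467 genes (7.81%), and the pleiotropic drug response element TCCGCGGA was in 0 subunit genes and in 11 genes (0.184%). Neither of these elements was in the window of RPN4, and bases farther upstream were not searched. These matches describe letters in a window and not binding.

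**Figure D1:**
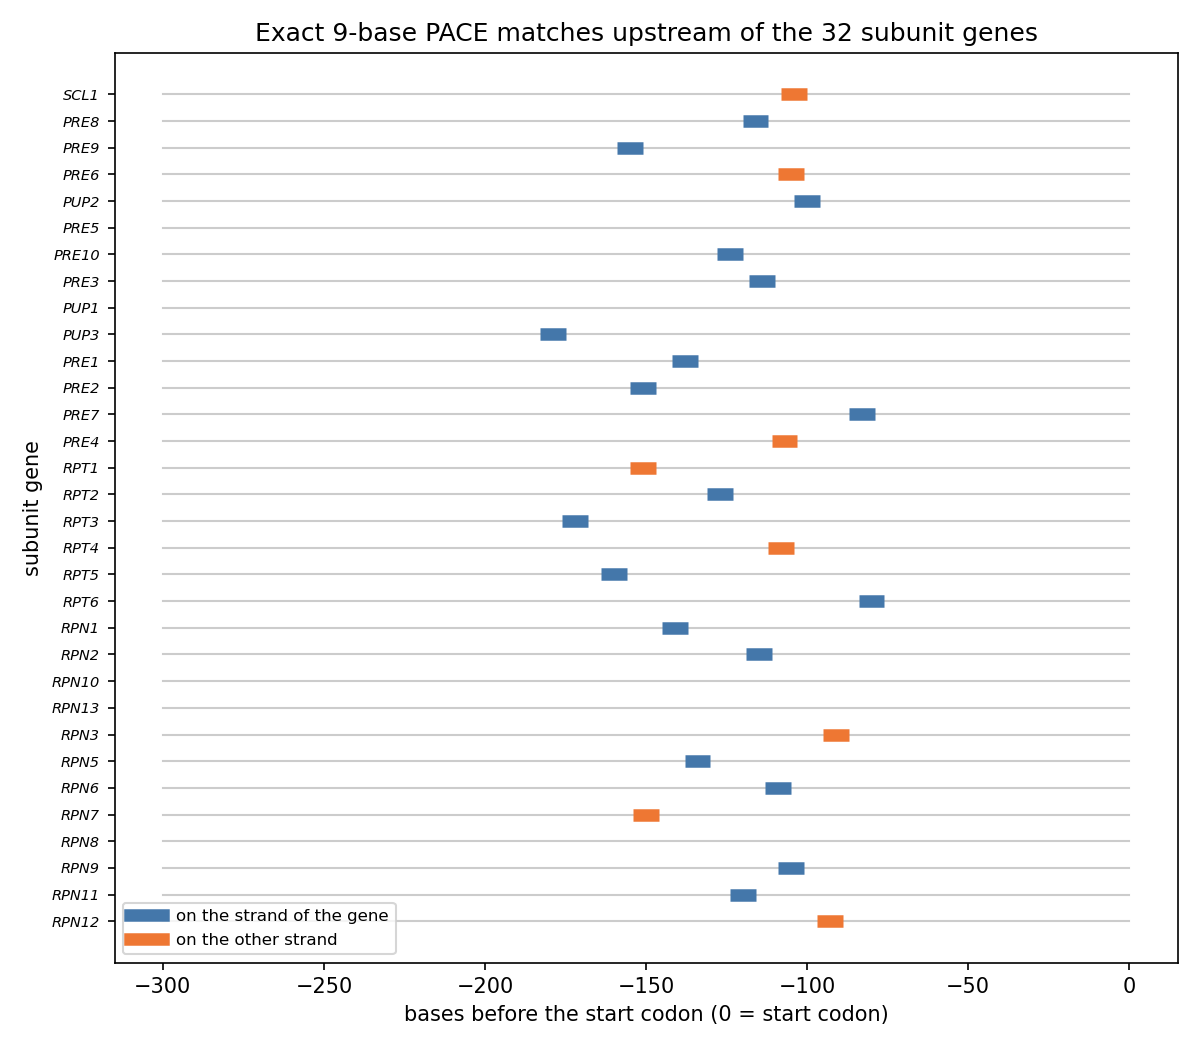
Position of the PACE letters in bases before the start codon (x axis) for each of the 32 subunit genes (y axis), with the strand of the match in colour; a line without a bar has no match. The last bases of the 27 matches lie between 76 and 175 bases before the start codon, and 19 matches are on the strand of the gene.

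The libraries held 14484847 to 16219263 expected counts. The strain markers followed the labels: HIS3 averaged 37.6 CPM (counts scaled to library size) in BY4741, 1496 in LCY001 and 507 in LCY002 on glucose, LEU2, URA3 and MET17 (MET15) were at 0 in the libraries, and 36, 39 and 39 of the 40 array genes were higher in LCY002 than in LCY001 on glucose, galactose and ethanol/glycerol. HIS3 was also lower in LCY002 than in LCY001 on galactose (438 against 1171 CPM) and ethanol/glycerol (653 against 1052 CPM). These strains thus differ in the level of this marker as well as in the array. CPM here are scaled by TMM factors, which assume that most genes do not differ; taking total counts as the scale instead moved the median of all 5692 genes tested by -0.14 to 0.19 on the log2 scale, depending on the comparison. Since the subunit genes moved by amounts of that size, the median of the 32 is also given relative to the median of all genes tested, which differed little between the scalings. A difference was called at a Benjamini-Hochberg adjusted p below 0.05 in the quasi-likelihood test of edgeR, over all genes tested in a comparison. Percentages named background are the shares of all genes tested that were called in the fit with TMM factors. Counts from another scale, fit or set of libraries have no such share of their own beside them. A turn of such a count thus does not by itself set the subunit genes apart from all genes. Comparisons that share a strain and carbon source share those 3 libraries.

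Averaged over the 9 groups, RPN4 had the lowest level per length of the 33 genes, 99.7 TPM (the authors' transcript abundance, scaled for gene length and library total). The subunit genes averaged 120 TPM (RPN1) to 376 TPM (PRE7). On ethanol/glycerol RPN4 stood at 129.2, 129.1 and 222.8 TPM in BY4741, LCY001 and LCY002. These means were above the highest group mean of RPN1, 128.9 TPM. Each of the 33 genes passed the low-count filter, and the lowest count of a member in any library was 1184 (RPN13). Across the 9 group means RPN4 spanned 1.79 on the log2 CPM scale. The subunit genes spanned a median of 0.29, from 0.12 for PRE7 to 0.62 for RPN12, against a median of 0.74 for the 5434 genes with at least 5 CPM.

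RPN4, the transcription factor gene, was highest in LCY002 on ethanol/glycerol. Its levels in the 3 libraries of BY4741 were 105, 113 and 109 CPM on glucose, 114, 121 and 117 CPM on galactose, and 212, 181 and 215 CPM on ethanol/glycerol. In LCY001 they were 136, 130.4 and 129.7 CPM on glucose, 102, 109 and 100.4 CPM on galactose, and 203, 209.8 and 198 CPM on ethanol/glycerol. In LCY002 they were 125, 124 and 122 CPM on glucose, 151, 150.1 and 138 CPM on galactose, and 392, 343 and 344 CPM on ethanol/glycerol. The ethanol/glycerol libraries were thus above those on both sugars in each strain, and those of LCY002 were the highest of the 27 libraries.

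From glucose to ethanol/glycerol RPN4 rose by 0.90 ± 0.06 (log2 fold change ± SE, n = 3 against 3) in BY4741, by 0.62 ± 0.06 in LCY001 and by 1.54 ± 0.06 in LCY002 (edgeR adjusted p = 8.45e-14, 1.49e-10 and 5.17e-19). From glucose to galactose it rose by 0.25 ± 0.06 in LCY002 and fell by 0.35 ± 0.06 in LCY001 (edgeR adjusted p = 0.000712 and 1.24e-05). In BY4741 the difference on galactose was 0.11 ± 0.06 (edgeR adjusted p = 0.1), and it was called with total counts as the scale (0.23, adjusted p = 0.00105) and in a fit of the compared libraries alone (0.11, adjusted p = 0.0309). The carbon source thus moved RPN4 in opposite directions on galactose in LCY001 and LCY002.

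Between strains, RPN4 was higher in LCY002 than in LCY001 on galactose, by 0.50 ± 0.06, and on ethanol/glycerol, by 0.82 ± 0.06 (edgeR adjusted p = 1.32e-07 and 3.96e-12). On glucose the same comparison gave -0.10 ± 0.06 (edgeR adjusted p = 0.166), which was called with total counts (-0.20, adjusted p = 0.00358) and with the compared libraries alone (-0.11, adjusted p = 0.0311). LCY001 exceeded BY4741 on glucose by 0.28 ± 0.06 and differed from it by -0.18 ± 0.06 on galactose (edgeR adjusted p = 0.000234 and 0.0163). The galactose call ended with total counts (adjusted p = 0.0668), without BY4741 galactose replicate 2 (0.0733), without LCY001 galactose replicate 1 (0.0572) and without LCY001 galactose replicate 3 (0.0695). On ethanol/glycerol the libraries of both strains overlapped (0.01 ± 0.06, edgeR adjusted p = 0.955). Against BY4741, LCY002 was higher on glucose, galactose and ethanol/glycerol by 0.18, 0.32 and 0.83 (edgeR adjusted p = 0.0159, 8.45e-05 and 1.71e-12), and the glucose call ended with total counts (adjusted p = 0.0623) and without BY4741 glucose replicate 1 (0.0772).

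The difference between LCY002 and LCY001 in RPN4 itself differed between carbon sources, by 0.59 ± 0.08 for galactose minus glucose and by 0.92 ± 0.08 for ethanol/glycerol minus glucose (interaction terms in edgeR, adjusted p = 1.62e-06 and 4.06e-10). For LCY001 against BY4741 the same terms were -0.46 ± 0.08 and -0.27 ± 0.08 (adjusted p = 4.8e-05 and 0.00765). The change of RPN4 from glucose was thus lower in LCY001 than in BY4741 on both other carbon sources, and higher in LCY002 than in LCY001.

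Summed over the 32 subunit genes, levels were 8018 ± 76.9 CPM on glucose, 7947 ± 108 on galactose and 7478 ± 64.9 on ethanol/glycerol in BY4741 (mean ± SD, n = 3). In LCY001 the sums were 8391 ± 96.0, 7679 ± 31.96 and 7233 ± 85.8 CPM, and in LCY002 they were 7606 ± 102, 8146 ± 63.8 and 7565 ± 108 CPM, in the same order. The sum was highest on glucose in LCY001 and on galactose in LCY002, while in BY4741 the libraries on the 2 sugars overlapped and those on ethanol/glycerol were lower. Each library is a whole culture, so that fewer cells of a kind and less RNA per cell cannot be told apart. As a share of all TPM, which is not scaled by TMM, the subunit genes took 0.663% (LCY002, glucose) to 0.802% (LCY001, galactose), and on this scale the order of the carbon sources changed in each strain. On glucose, galactose and ethanol/glycerol the shares were 0.705%, 0.789% and 0.784% in BY4741, 0.789%, 0.802% and 0.752% in LCY001, and 0.663%, 0.777% and 0.768% in LCY002.

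RPN4 divided by the sum of the subunit genes in CPM, a ratio that no scaling changes, was 13.6, 14.8 and 27.1 per mille in BY4741 on glucose, galactose and ethanol/glycerol. It was 15.7, 13.5 and 28.1 per mille in LCY001 and 16.2, 17.96 and 47.5 per mille in LCY002. The libraries on ethanol/glycerol had a higher ratio than those on glucose and galactose in each strain, without overlap, and those of LCY002 had the highest.

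**Figure D2:**
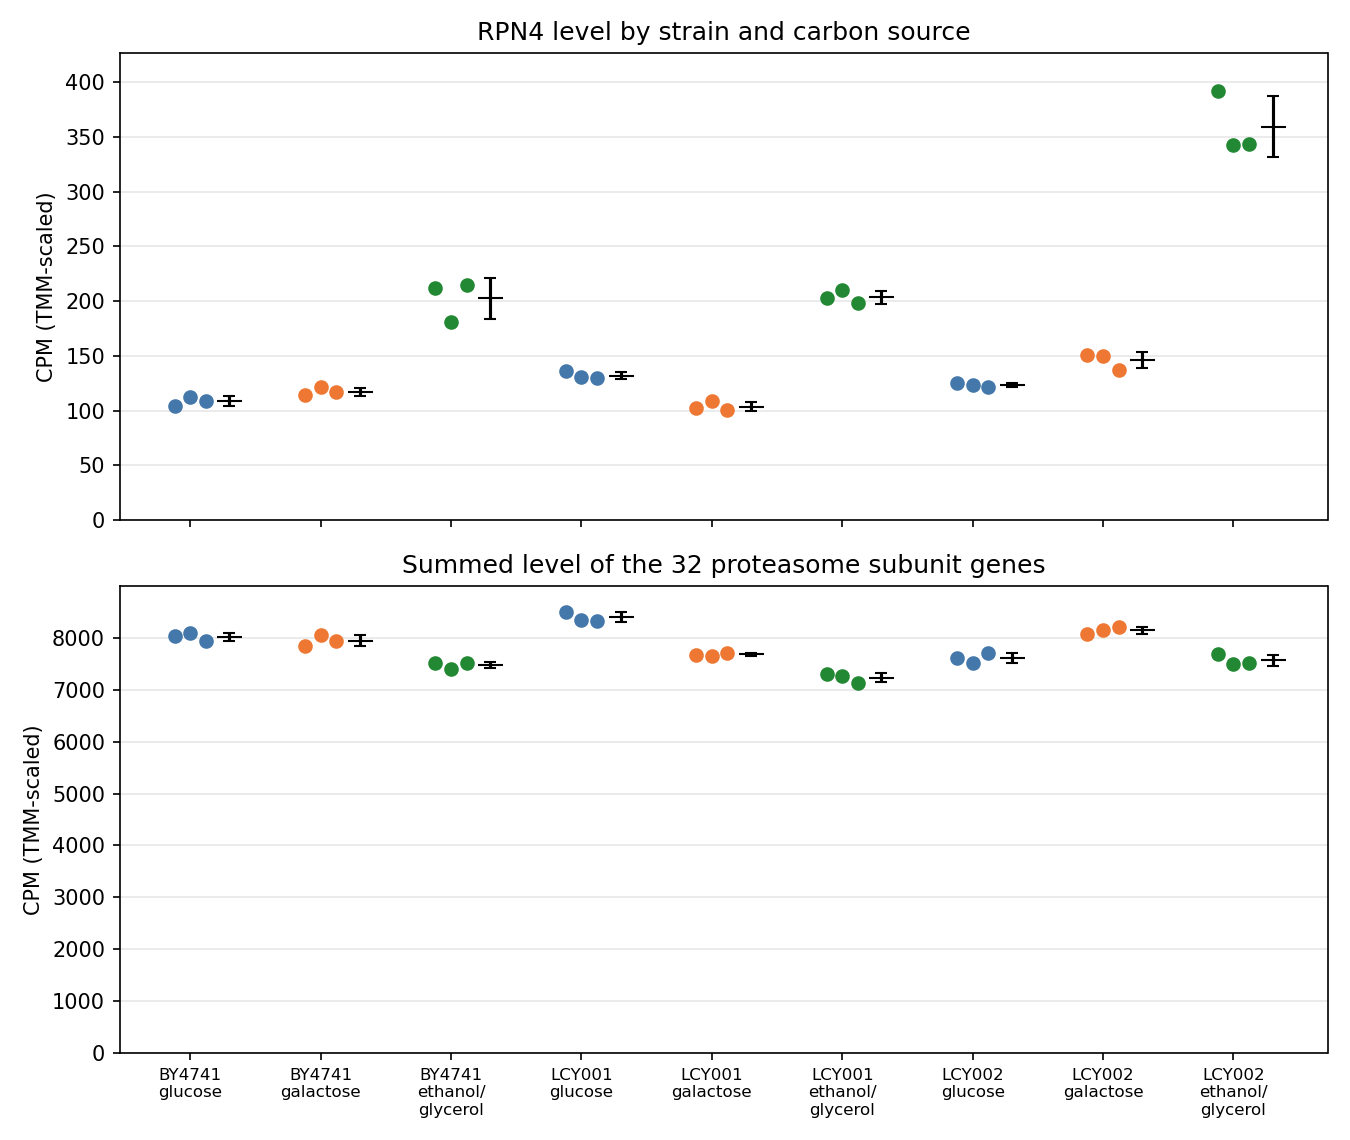
RPN4 (CPM) and the summed level of the 32 subunit genes (CPM) for each strain on each carbon source; points are libraries, coloured by carbon source, and black bars beside them are means with SD. RPN4 is highest in LCY002 on ethanol/glycerol, where the libraries reach 343 to 392 CPM, while the subunit sums lie between 7135 and 8502 CPM in the 27 libraries.

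In BY4741 3 subunit genes were called between galactose and glucose, 6 with RLE size factors and 7 in DESeq2. PRE9, RPT2 and RPT6 were called lower and 0 were called higher, against 31.7% and 33.9% of all genes tested, and the median of the 32 was -0.01 (log2), which is -0.02 relative to all genes. With total counts as the scale the direction turned, with 19 called higher and 1 lower, and the median of all genes moved by 0.12 too. On ethanol/glycerol 18 subunit genes were called lower and 3 higher than on glucose (background 37.7% lower and 43.7% higher), with a median of -0.10, or -0.15 relative to all genes. The 18 included 5 of 7 alpha ring genes and 5 of 7 beta ring genes, and RPT4, RPT3 and RPN8 were the 3 called higher. Total counts turned this split too, to 16 higher and 3 lower, with the median of all genes moved by 0.19.

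In LCY001 most subunit genes fell on both other carbon sources. On galactose 20 were called lower than on glucose and 0 higher (background 28.3% lower and 31.1% higher), with a median of -0.11, or -0.12 relative to all genes; with total counts 6 were lower and 1 was higher. On ethanol/glycerol 25 were called lower and 1 higher (background 37.9% and 40.2%), with a median of -0.21, or -0.22 relative to all genes, and with total counts 16 were lower and 5 higher. The 25 covered 7 of 7 alpha ring genes, 6 of 7 beta ring genes, 4 of 6 ATPases, 7 of 8 lid genes and 1 of the 4 other base subunits. The gene called higher was RPT3 (0.08, edgeR adjusted p = 0.0483), a call that ended without any single one of the 6 libraries compared and in DESeq2 (adjusted p = 0.0873).

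In LCY002 the direction on galactose was the opposite one. There 18 subunit genes were called higher than on glucose and 0 lower (background 33.7% higher and 26.4% lower), with a median of 0.10, or 0.06 relative to all genes. The count was smaller with RLE size factors (5), in DESeq2 (6), in the fit of the compared libraries (8), without LCY002 glucose replicate 2 (9) and without LCY002 galactose replicate 3 (11), and larger with total counts (30). On ethanol/glycerol the subunit genes divided, with 9 called higher and 10 lower (background 43.2% higher and 40.4% lower) and a median of -0.03, or -0.06 relative to all genes. RLE size factors gave 7 higher and 13 lower. Total counts gave 21 higher and 3 lower, with the median of all genes moved by 0.17. The 4 largest rises were those of RPN8 (0.38), RPN2 (0.24), RPT3 (0.19) and RPN10 (0.18).

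Between LCY002 and LCY001 the subunit genes differed by carbon source. On glucose 23 were called lower in LCY002 and 0 higher (background 25.3% lower and 28.5% higher), with a median of -0.13, or -0.14 relative to all genes. On galactose 14 were called higher and 0 lower (background 20.2% higher and 18.1% lower), with a median of 0.09, and 0.085 relative to all genes. Total counts turned the split to 1 higher and 11 lower, with the median of all genes moved by -0.14. Without LCY002 galactose replicate 1 or without replicate 3, 9 were called. On ethanol/glycerol 9 were higher and 0 lower (background 29.4% and 30.4%), with a median of 0.05, also relative to all genes, and 5 were called with total counts.

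Between LCY001 and BY4741, which differ in CEN-HIS3, 14 subunit genes were called higher in LCY001 on glucose and 1 lower (background 27.6% and 27.8%), with a median of 0.07, also relative to all genes; total counts gave 23 higher and 1 lower. The 14 included all 6 ATPases, and the gene called lower was RPN10. On galactose 9 were lower and 1 was higher (background 18.2% and 20.7%), with a median of -0.06, also relative to all genes, and with total counts 1 was lower and 1 higher. This count was 3 without BY4741 galactose replicate 2, 6 without BY4741 galactose replicate 3 or any one of the LCY001 galactose libraries, and 5 with the compared libraries alone. On ethanol/glycerol 3 were lower and 0 higher in edgeR and in DESeq2 (background 4.92% and 6.59%), 9 had an unadjusted p below 0.05, the median was -0.05 (-0.04 relative to all genes), and leaving out single libraries gave 0 to 5: 0 without LCY001 replicate 1 or 3, 5 without LCY001 replicate 2, and 1 without any one BY4741 library.

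Between LCY002 and BY4741, 12 subunit genes were lower and 1 higher on glucose (background 20.7% and 17.7%), with a median of -0.08, or -0.06 relative to all genes. On galactose 10 were higher and 2 lower (background 19.8% and 18%), with a median of 0.04, or 0.03 relative to all genes. Total counts turned this to 2 higher and 10 lower, with the median of all genes moved by -0.09. In all, 7 were called without BY4741 replicate 1 and 5 without LCY002 replicate 3. On ethanol/glycerol 7 were higher and 1 lower (background 28.2% and 31.5%), with a median of 0.00, or 0.02 relative to all genes. Total counts turned this ethanol/glycerol split to 2 higher and 13 lower, with the median of all genes moved by -0.07. There 4 were called without BY4741 replicate 2 or without LCY002 replicate 2, 5 without LCY002 replicate 1, and 5 with the compared libraries alone.

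The response to the carbon source differed between strains for most subunit genes, and here the direction was the same under each scaling. For galactose minus glucose, the difference between LCY002 and LCY001 was positive and called for 27 of 32 subunit genes (background 23.5% called higher), with a median of 0.25, also relative to all genes, and 0 were called lower. For ethanol/glycerol minus glucose it was called higher for 22 (background 28.3%) and lower for 0, with a median of 0.19, or 0.215 relative to all genes. For LCY001 against BY4741 it was called lower for 17 on galactose (background 24.4%) and for 17 on ethanol/glycerol (background 23.3%), with medians of -0.12 in both (-0.13 and -0.11 relative to all genes) and 0 called higher. The first of these 2 counts was 11 with RLE size factors, in the fit of the compared libraries, without BY4741 glucose replicate 3 and without LCY001 galactose replicate 1, and 10 without LCY001 glucose replicate 1. In the 11 comparisons in which edgeR called 0 subunit genes in a direction, 0 had an unadjusted p below 0.05 in that direction and DESeq2 called 0. The 3 libraries of LCY001 on glucose, the group with the highest subunit sum in CPM, enter each of the 4 interaction terms.

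**Figure D3:**
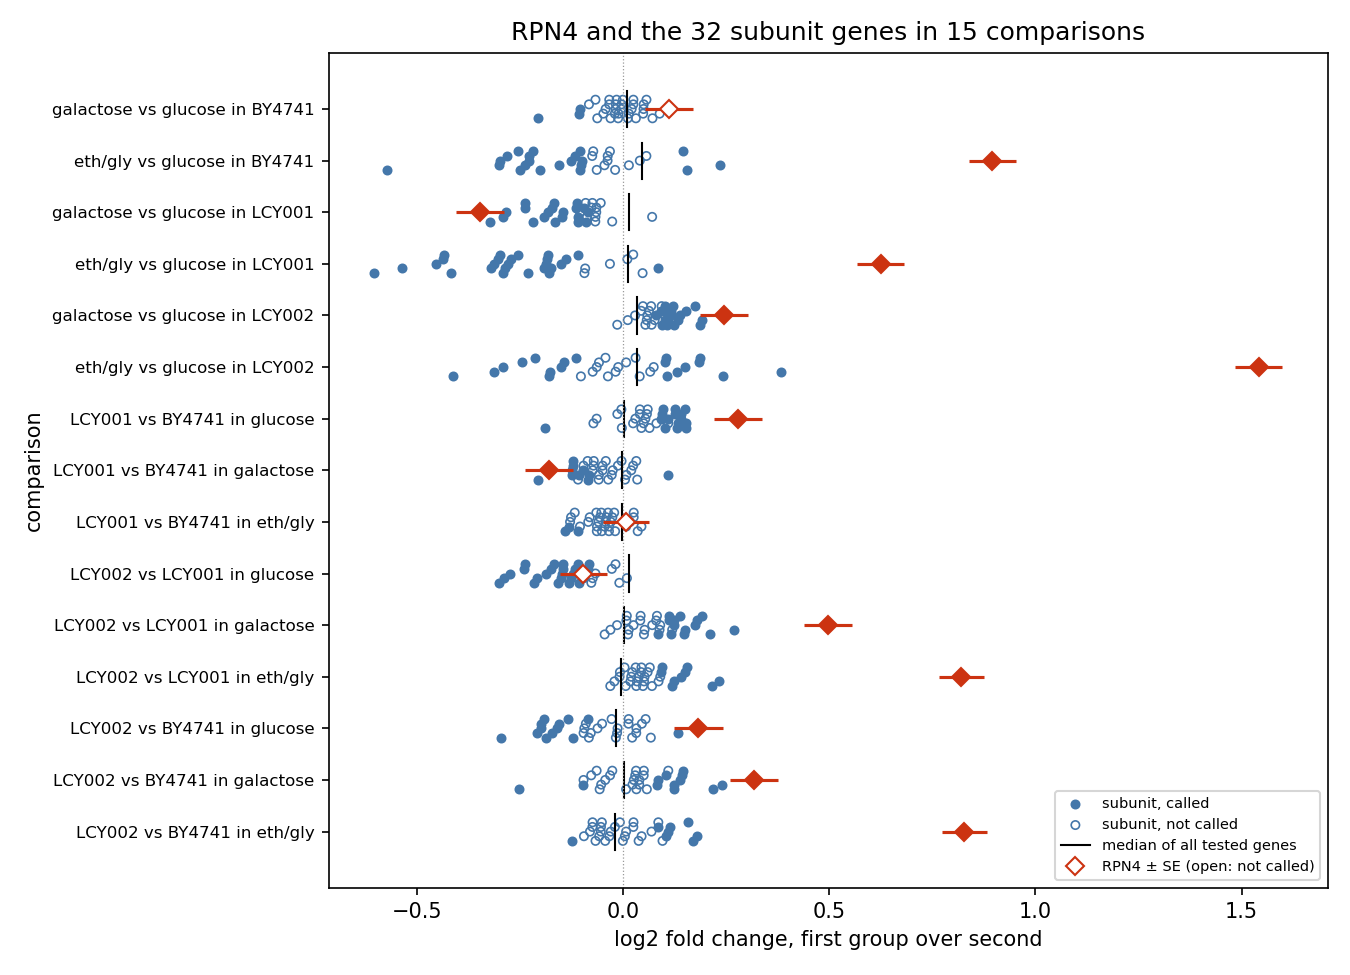
Log2 fold changes of RPN4 and the 32 subunit genes (x axis) in 15 comparisons of carbon sources within a strain and of strains on a carbon source (y axis); circles are subunit genes (filled where called), diamonds are RPN4 with its SE, and black lines are the median of all genes tested. The subunit genes lie between -0.60 and 0.38, while RPN4 reaches 1.54 in LCY002 on ethanol/glycerol against glucose.

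Among the alpha ring genes, PRE9, whose protein yeast can live without, had the lowest log2 fold change of the 32 in each of the 6 comparisons of carbon sources. Its levels on glucose were 249, 251 and 239 CPM in BY4741, 249, 245 and 243 CPM in LCY001 and 223, 220.1 and 230.0 CPM in LCY002. On ethanol/glycerol they were 165, 162 and 170.3 CPM, 161, 166 and 158 CPM, and 168, 166 and 172 CPM in the same strains, below each glucose library. The changes were -0.57 ± 0.04, -0.60 ± 0.04 and -0.41 ± 0.04 (edgeR adjusted p = 2.95e-14, 1.45e-14 and 2.5e-11). On galactose PRE9 changed by -0.21 ± 0.03 in BY4741 and by -0.32 ± 0.03 in LCY001 (edgeR adjusted p = 1.01e-05 and 1.09e-08), and in LCY002 it gave -0.01 ± 0.03 (edgeR adjusted p = 0.739).

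SCL1, another alpha ring gene, had the most negative interaction term for galactose between LCY001 and BY4741, -0.22 ± 0.05 (edgeR adjusted p = 0.00121). It stood at 201, 199.6 and 203 CPM on glucose and 194, 205 and 199 CPM on galactose in BY4741, where the libraries overlapped. In LCY001 it stood at 218, 216 and 225 CPM on glucose and 192, 188 and 179 CPM on galactose, with no overlap.

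Of the beta ring, PRE2, which carries the chymotrypsin-like active site, was lower on glucose in LCY002 than in LCY001 (-0.29 ± 0.05, edgeR adjusted p = 7.75e-06), at 182, 171 and 191 CPM against 225, 219.1 and 219.1 CPM. On ethanol/glycerol it had the lowest value of the 32 in that comparison, -0.03 ± 0.05 (edgeR adjusted p = 0.569), with 194, 192 and 186 CPM against 187, 209 and 189 CPM. PRE3, which carries the caspase-like site, was the 1 subunit gene called lower in LCY002 than in BY4741 on ethanol/glycerol (-0.12 ± 0.05, edgeR adjusted p = 0.0285), at 162, 149.9 and 150.2 CPM against 167, 172 and 165 CPM. That call ended without BY4741 replicate 2, without LCY002 replicate 2 or 3, and with the compared libraries alone (adjusted p = 0.097, 0.105, 0.0999 and 0.0761). PRE7 had the narrowest span of the 32, from 252 to 274 CPM over the group means.

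Of the base ATPases, RPT6 was lowest in LCY002 on glucose relative to LCY001, at 248, 247 and 255 CPM against 319.7, 305 and 299.96 CPM (-0.30 ± 0.03, edgeR adjusted p = 1.53e-08). On ethanol/glycerol the order was the reverse, with 281, 278 and 274 CPM in LCY002 against 253, 243 and 253 CPM in LCY001 (0.15 ± 0.03, edgeR adjusted p = 0.000185). It had the highest interaction terms of the 32 between these strains, 0.35 ± 0.05 for galactose and 0.45 ± 0.05 for ethanol/glycerol (edgeR adjusted p = 4.77e-07 and 3.32e-09). RPT6 was thus lower in LCY002 on one carbon source and higher on another, without overlap of the libraries in either.

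RPT4 rose most of the 32 on ethanol/glycerol in BY4741, from 237, 242 and 241 CPM to 286, 279 and 284 CPM (0.24 ± 0.04, edgeR adjusted p = 3.05e-06). It was also the subunit gene called higher in LCY001 than in BY4741 on galactose (0.11 ± 0.04, edgeR adjusted p = 0.0263), at 246, 244 and 243 CPM against 222, 233 and 226 CPM. The second call ended without BY4741 replicate 1 or 3, without LCY001 replicate 1 or 3 and with the compared libraries alone (adjusted p = 0.0974, 0.0682, 0.0732, 0.0504 and 0.0547). RPT3 was higher on ethanol/glycerol than on glucose in BY4741 by 0.15 ± 0.04 and in LCY002 by 0.19 ± 0.04 (edgeR adjusted p = 0.000759 and 9.43e-05), with 267, 254 and 266 CPM against 238, 246 and 224 CPM in BY4741. RPT2 had the highest value between LCY001 and BY4741 on glucose (0.15 ± 0.03, edgeR adjusted p = 0.000247), at 408, 398 and 398 CPM against 357, 363 and 363 CPM. Each of these 3 ATPase genes carries the PACE letters, and RPT4 and RPT3 rose where most called subunit genes fell.

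Of the other base subunits, RPN10, a ubiquitin receptor, was lower in LCY001 and LCY002 than in BY4741 on glucose and galactose. On glucose it stood at 216, 218 and 202 CPM in BY4741, at 194, 192 and 172 CPM in LCY001 and at 176, 165 and 177 CPM in LCY002. On galactose it stood at 219, 228 and 229 CPM, at 194, 188 and 204 CPM, and at 189.8, 196 and 181 CPM in the same order. The libraries of BY4741 lay above those of both other strains on both sugars. LCY001 differed from BY4741 by -0.19 ± 0.04 and -0.21 ± 0.04 (edgeR adjusted p = 0.000733 and 0.000503), and LCY002 by -0.30 ± 0.04 and -0.25 ± 0.04 (6.53e-06 and 4.87e-05). On ethanol/glycerol the differences from BY4741 were -0.10 ± 0.04 and -0.07 ± 0.04 (edgeR adjusted p = 0.129 and 0.147). RPN10 lacks the PACE letters in its window, as does RPN13, a second ubiquitin receptor, whose group means lay between 81.4 and 91.6 CPM.

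Of the lid, RPN8, the partner of the deubiquitinating subunit Rpn11, rose most of the 32 on ethanol/glycerol in LCY002, from 189.96, 196 and 199 CPM to 262, 249 and 253 CPM (0.38 ± 0.04, edgeR adjusted p = 4.27e-10). In BY4741 it rose from 212, 211 and 214 CPM to 241, 227 and 238 CPM (0.15 ± 0.04, edgeR adjusted p = 0.000861), and in LCY001, at 245, 232 and 232 CPM and then 233, 234 and 225 CPM, the libraries overlapped (-0.03 ± 0.04, edgeR adjusted p = 0.433). RPN8 too lacks the PACE letters.

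RPN12, a late-joining lid subunit, had the widest span of the 32. On galactose it stood at 177, 169 and 179.6 CPM in LCY002 against 146, 148 and 143 CPM in LCY001 (0.27 ± 0.04, edgeR adjusted p = 2.18e-05) and 143, 156 and 147 CPM in BY4741 (0.24 ± 0.04, edgeR adjusted p = 8.1e-05). On ethanol/glycerol it stood at 132, 138 and 132 CPM in LCY002, 113, 119 and 109.9 CPM in LCY001, and 128, 122 and 124 CPM in BY4741. LCY002 was thus the highest of the strains for this gene on both carbon sources. On glucose the 3 strains were closer, at 159, 163 and 177 CPM in LCY002, 167, 165 and 163 CPM in LCY001, and 157, 156 and 142 CPM in BY4741. RPN12 was the 1 subunit gene called higher in LCY002 than in BY4741 on glucose (0.13 ± 0.04, edgeR adjusted p = 0.0178), a call that ended with total counts (adjusted p = 0.11), without BY4741 replicate 3 (0.139) and without LCY002 replicate 3 (0.156).

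RPN3 rose most of the 32 from glucose to galactose in LCY002, from 339, 330.4 and 326 CPM to 377, 379 and 381 CPM (0.19 ± 0.03, edgeR adjusted p = 2.01e-05). RPN5 had the highest value between LCY002 and BY4741 on ethanol/glycerol, at 408, 387 and 394 CPM against 359.6, 342 and 348 CPM (0.18 ± 0.04, edgeR adjusted p = 0.000168). RPN11, the deubiquitinating subunit, had the lowest value between LCY001 and BY4741 on ethanol/glycerol, at 212, 226 and 207 CPM against 234, 239 and 238 CPM (-0.14 ± 0.04, edgeR adjusted p = 0.0216). This last call ended without BY4741 replicate 2 (adjusted p = 0.0756), without LCY001 replicate 1 (0.0897), without LCY001 replicate 3 (0.118) and with the compared libraries alone (0.15). RPN6 was called lower in LCY002 than in BY4741 on galactose beside RPN10 (-0.10 ± 0.04, edgeR adjusted p = 0.0333), and that call ended without any one of 4 of the 6 libraries (BY4741 replicates 1 and 2, LCY002 replicates 1 and 3; adjusted p = 0.0672, 0.167, 0.0905 and 0.0862) and with the compared libraries alone (0.0547).

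**Figure D4:**
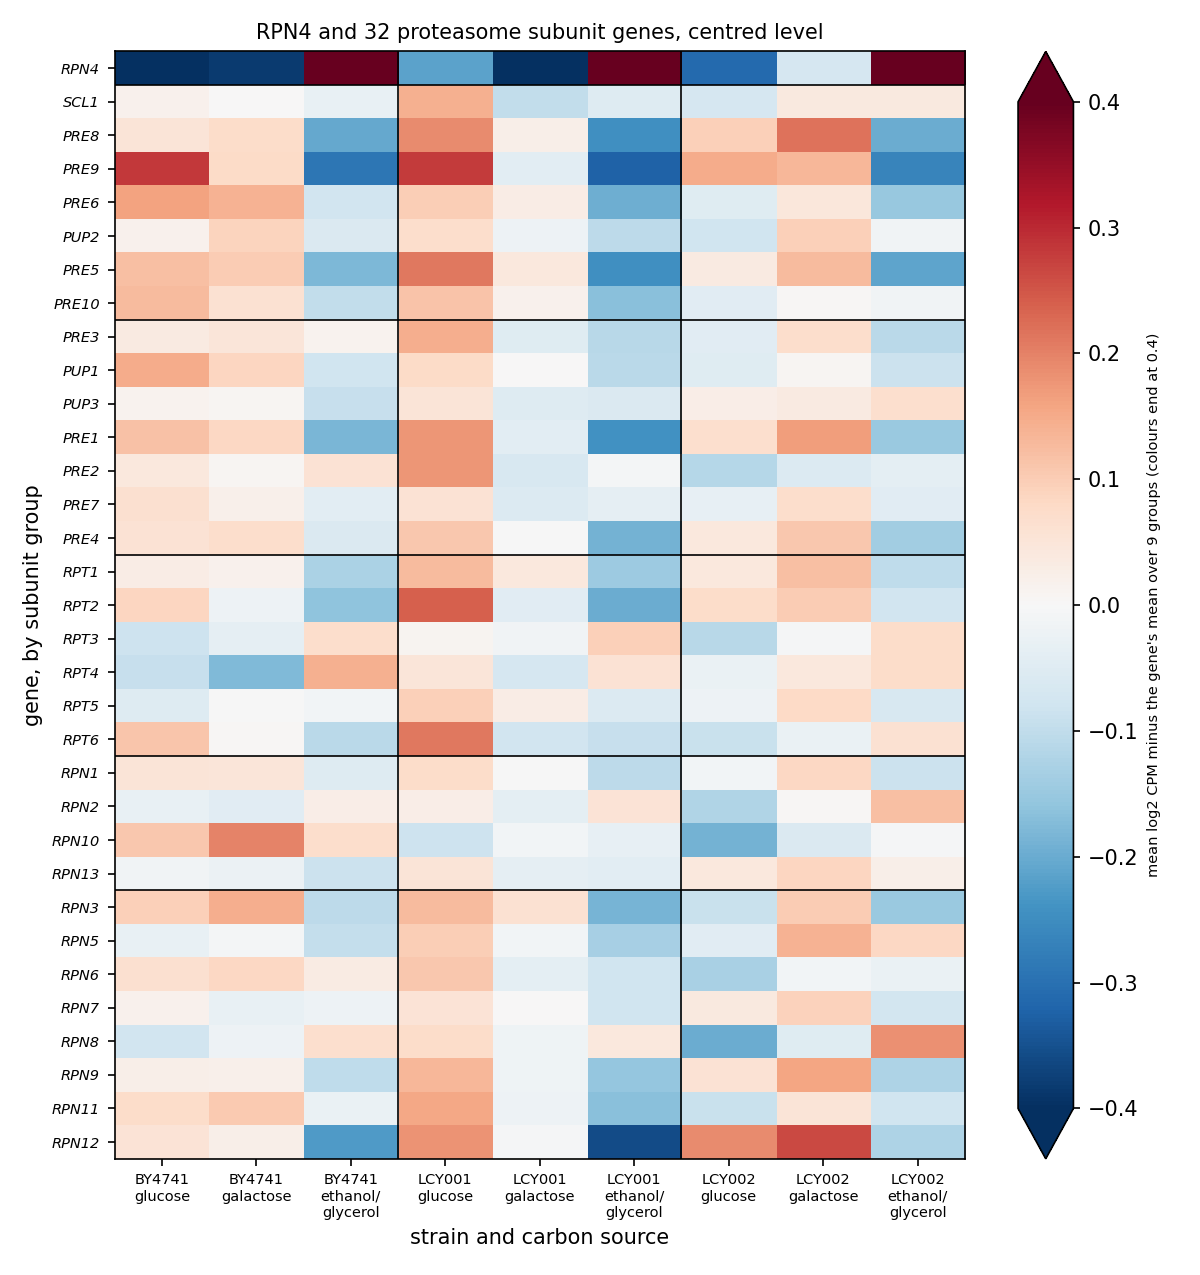
Mean log2 CPM of RPN4 and the 32 subunit genes in the 9 groups, each gene centred on its own mean over the groups; colours end at 0.4. RPN4 has the widest range of colour, and PRE9 and RPN12 the widest among the subunit genes, with both low on ethanol/glycerol.

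Genes outside the proteasome were ranked by the likeness of their profile over the 9 groups to that of the subunit genes. The measure was the root mean square difference, in log2 units, between a gene's centred profile and the mean profile of the 32. That mean profile ran only from -0.11 to 0.11, and the measure is not scaled for the size of a gene's changes. A gene that hardly changed thus also ranks close, and a low value alone does not show a shared pattern. The 10 closest of 5401 genes were GPI16, MTC1, VPS29, PAN3, SGT1, SBA1, ERV41, YMR099C, BIG1 and PTC3, at 0.034 to 0.045. The subunit genes themselves lay at 0.021 (RPN1) to 0.170 (PRE9) with a median of 0.060, RPN4 lay at 0.587, and the median of the genes ranked was 0.248. PACE was found in 0 of the 10 and its shorter letters in 2. The 10 genes spanned 0.19 to 0.32 log2 units over the groups, close to the median span of the subunit genes.

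Medians of the subunit genes with and without the PACE letters are given as a description. For the difference between LCY002 and LCY001 in the response to galactose, the 27 genes with the letters had a median of 0.26 (0.11 to 0.35) and the 5 without them 0.14 (0.06 to 0.26). In that comparison the 44 other genes tested with the letters had a median of 0.13 (-0.73 to 0.80). From glucose to ethanol/glycerol in LCY001 the medians were -0.26 and -0.09, and in LCY002 they were -0.04 and -0.02. From glucose to galactose they were -0.01 and -0.01 in BY4741 and 0.10 and 0.09 in LCY002. On glucose they were -0.13 and -0.13 between LCY002 and LCY001. Between LCY002 and BY4741 on glucose the order was the other one, with -0.06 and -0.12.

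Among 6 genes known to act on RPN4 in yeast, 5 were called higher on ethanol/glycerol than on glucose in each strain, and 1, 0 and 1 lower in BY4741, LCY001 and LCY002; with total counts the higher counts were 5, 6 and 5. Of all genes tested 43.7%, 40.2% and 43.2% were called higher and 37.7%, 37.9% and 40.4% lower. HSF1, the heat shock factor that activates RPN4, rose from 171, 179 and 179.6 CPM to 278, 289 and 279 CPM in BY4741, and its changes were 0.67 ± 0.04, 0.54 ± 0.04 and 0.61 ± 0.04 in the 3 strains (edgeR adjusted p = 8.18e-15, 1.29e-12 and 5.58e-14). UBR2, the ubiquitin ligase that marks Rpn4 protein for degradation, rose by 0.66 ± 0.04, 0.66 ± 0.04 and 0.72 ± 0.05 (edgeR adjusted p = 2.66e-13, 3.78e-13 and 5.07e-14). PDR3 was the gene called lower, with -0.20 ± 0.05 in BY4741 and -0.13 ± 0.05 in LCY002 (edgeR adjusted p = 0.00119 and 0.0259). In LCY001 it gave 0.01 ± 0.05 (edgeR adjusted p = 0.928). Between LCY002 and LCY001 on ethanol/glycerol, where RPN4 differed by 0.82, 2 of the 6 were called higher and 0 lower (background 29.4% and 30.4%); with total counts 0 were called.

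Of 10 assembly chaperone genes, 2, 0 and 3 were called higher and 1, 4 and 3 lower on ethanol/glycerol in BY4741, LCY001 and LCY002, and total counts gave 7, 1 and 4 higher and 0, 4 and 1 lower (background 43.7%, 40.2% and 43.2% higher, 37.7%, 37.9% and 40.4% lower). TMA17, which helps pair the ATPases under stress, had the largest change. It stood at 52.5, 57.6 and 60.0 CPM in BY4741, 112, 100.2 and 108 CPM in LCY001 and 57.4, 61.4 and 63.8 CPM in LCY002 on glucose, so that the LCY001 libraries were above the others. LCY001 exceeded BY4741 by 0.91 ± 0.07, and LCY002 differed from LCY001 by -0.81 ± 0.07 (edgeR adjusted p = 1.66e-10 and 9.33e-10). On ethanol/glycerol TMA17 rose by 0.99 ± 0.07 in BY4741 and 0.97 ± 0.07 in LCY002 (edgeR adjusted p = 1.6e-12 and 2.04e-12), and in LCY001 it gave -0.07 ± 0.07 (edgeR adjusted p = 0.343). POC4, a chaperone of the core particle, was lower on ethanol/glycerol in LCY002 (-0.83 ± 0.14, edgeR adjusted p = 5.44e-06), from 9.14, 10.1 and 9.86 CPM to 4.30, 5.60 and 6.45 CPM; in BY4741 and LCY001 it gave -0.11 ± 0.12 and -0.22 ± 0.13 (edgeR adjusted p = 0.423 and 0.111). The PACE letters were in 0 of these 10 genes.

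Of 8 genes for associated proteins, 4, 2 and 5 were higher and 2, 2 and 2 lower on ethanol/glycerol in BY4741, LCY001 and LCY002; total counts gave 5, 6 and 7 higher and 0, 1 and 1 lower. The background was again 43.7%, 40.2% and 43.2% higher and 37.7%, 37.9% and 40.4% lower. BLM10, called lower in BY4741 and LCY002, is uncertain, since it overlaps another gene or carries a transcript added by the submitters. SPG5, a regulator of the proteasome in stationary phase, rose by 1.32 ± 0.04, 1.17 ± 0.04 and 2.13 ± 0.04 (edgeR adjusted p = 7.17e-20, 1.2e-18 and 1.64e-24). Its libraries on ethanol/glycerol stood at 189.9, 188 and 184 CPM in BY4741, 182, 186 and 189 CPM in LCY001, and 317, 341 and 358 CPM in LCY002. SPG5, like RPN4, was higher in LCY002 than in LCY001 there (0.87 ± 0.04, edgeR adjusted p = 2.95e-15). ECM29, which ties the regulatory particle to the core, fell by 0.27 ± 0.05, 0.48 ± 0.05 and 0.44 ± 0.05 in BY4741, LCY001 and LCY002 (edgeR adjusted p = 5.24e-05, 5.53e-09 and 2.79e-08), in LCY001 from 108, 99.0 and 104 CPM to 73.6, 74.4 and 74.3 CPM.

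Of 19 genes of ubiquitin conjugation, 9, 5 and 10 were higher and 5, 7 and 6 lower on ethanol/glycerol (background 43.7%, 40.2% and 43.2%, then 37.7%, 37.9% and 40.4%), and the majority turned under RLE size factors in BY4741 (6 higher, 7 lower) and under total counts in LCY001 (10 higher, 5 lower). UBC5, a conjugating enzyme for stress and short-lived proteins, rose by 2.47 ± 0.06, 1.97 ± 0.06 and 2.19 ± 0.06 (edgeR adjusted p = 2.16e-22, 1.37e-20 and 1.03e-21), from 21.4, 24.4 and 23.5 CPM to 127, 125 and 133 CPM in BY4741. UBI4, the polyubiquitin gene, rose by 1.86 ± 0.06, 1.17 ± 0.06 and 1.95 ± 0.06 (edgeR adjusted p = 3.05e-20, 6.93e-16 and 1.21e-20). Both values are uncertain, since UBC5 has a near-identical relative in UBC4 and the ubiquitin repeats of UBI4 occur in other genes. SAN1, a nuclear quality-control ligase, fell in the 3 strains (log2 fold changes of -0.87 ± 0.06, -0.65 ± 0.06 and -1.05 ± 0.07; edgeR adjusted p = 1.56e-12, 8.24e-10 and 3.24e-14), in LCY002 from 146, 137 and 133 CPM to 67.3, 68.1 and 65.2 CPM.

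Of 9 genes for Cdc48 and its cofactors and for shuttle proteins, 5, 4 and 5 were higher and 4, 3 and 0 lower on ethanol/glycerol, and total counts gave 5, 6 and 9 higher and 0, 2 and 0 lower, beside a background of 43.7%, 40.2% and 43.2% higher and 37.7%, 37.9% and 40.4% lower. CDC48, the ATPase that extracts ubiquitinated proteins, had the same signs as most called subunit genes between LCY002 and LCY001. It stood at 1152, 1158 and 1148 CPM in LCY001 and 974.5, 996.5 and 965.5 CPM in LCY002 on glucose, and at 906, 944 and 909 CPM and 1131, 1092 and 1081 CPM on galactose. LCY002 was lower on glucose (-0.24 ± 0.03) and higher on galactose (0.26 ± 0.03, edgeR adjusted p = 1.77e-06 and 7.52e-07). CDC48 carries the PACE letters, as do ECM29, UBA1, UBI4 and YAP1 of the other lists. Between LCY002 and LCY001, ECM29 gave -0.10 ± 0.05 on glucose, 0.19 ± 0.05 on galactose and -0.06 ± 0.05 on ethanol/glycerol (edgeR adjusted p = 0.117, 0.00509 and 0.387). YAP1 gave 0.05 ± 0.05, 0.15 ± 0.04 and 0.06 ± 0.04 in the same order (edgeR adjusted p = 0.342, 0.00923 and 0.24). SHP1, of the Cdc48 list and without the letters, gave -0.18 ± 0.04, 0.18 ± 0.04 and 0.20 ± 0.04 (edgeR adjusted p = 0.000136, 0.000272 and 2.94e-05). A link between the letters and these signs was not tested. DDI1, a shuttle protein, rose on ethanol/glycerol by 0.78 ± 0.05, 0.38 ± 0.05 and 0.91 ± 0.05 (edgeR adjusted p = 1.53e-14, 2.75e-08 and 6.05e-16).

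Of 8 genes of the GID ligase, which in yeast marks enzymes of sugar synthesis for degradation when glucose returns, 6, 2 and 8 were higher and 0, 3 and 0 lower on ethanol/glycerol, with medians of 0.42, 0.09 and 1.04 (background 43.7%, 40.2% and 43.2% higher, 37.7%, 37.9% and 40.4% lower); total counts turned the LCY001 split to 4 higher and 1 lower. On glucose 7 were lower in LCY002 than in LCY001 and 0 higher (background 25.3% and 28.5%), with a median of -0.62, and on ethanol/glycerol 6 were higher and 0 lower (background 29.4% and 30.4%), with a median of 0.39. UBC8, its conjugating enzyme, rose in LCY002 from 25.2, 24.0 and 25.5 CPM to 156, 167 and 162 CPM (2.70 ± 0.07, edgeR adjusted p = 8.3e-23), against 1.65 ± 0.07 in BY4741 and 0.90 ± 0.06 in LCY001 (edgeR adjusted p = 4e-18 and 9.17e-13). GID8 was higher in LCY002 than in LCY001 on ethanol/glycerol by 0.85 ± 0.06 (edgeR adjusted p = 2.2e-12), at 264, 271 and 274 CPM against 146, 163 and 139 CPM. In the strain comparison these genes had the same signs as the subunit genes on glucose and ethanol/glycerol and larger medians. VID28, counted among those called in LCY002, is uncertain, since it overlaps another gene or carries a transcript added by the submitters. VID24 was called higher on ethanol/glycerol in LCY002 close to the threshold (edgeR adjusted p = 0.0498).

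**Figure D5:**
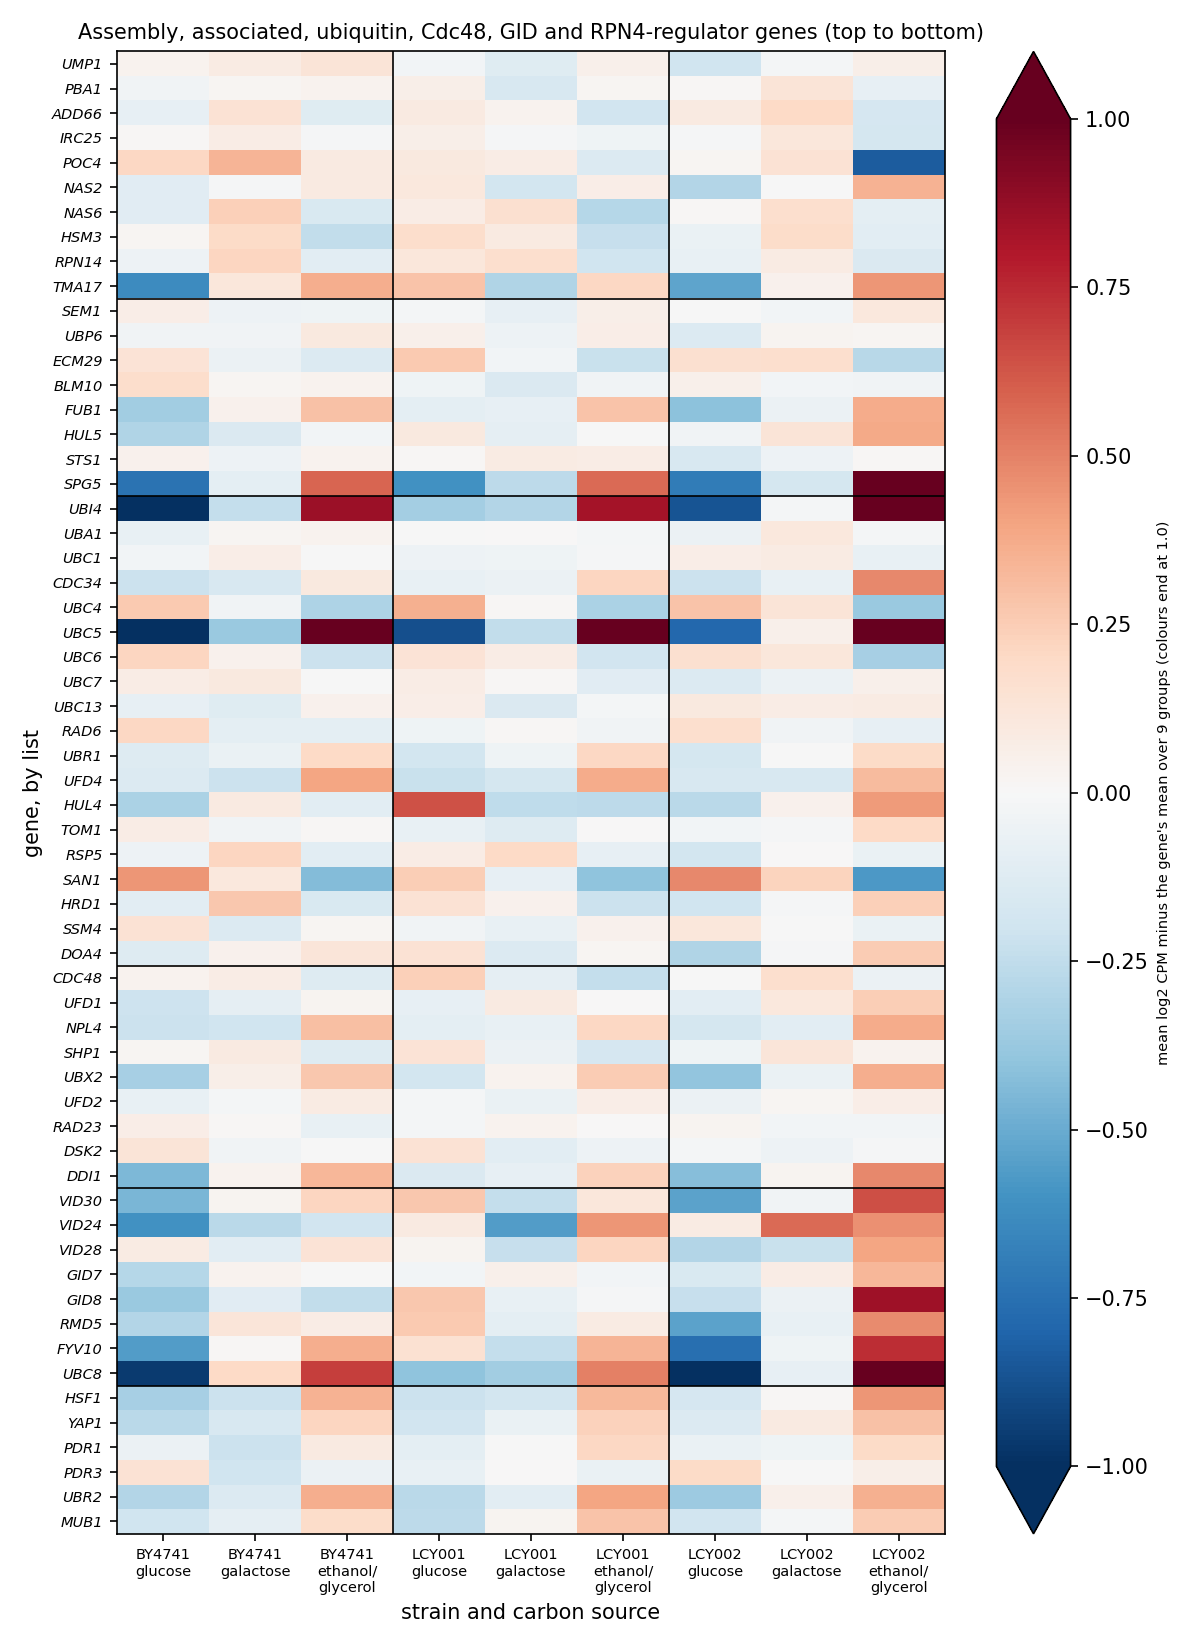
Mean log2 CPM of the genes of the 6 lists related to the proteasome in the 9 groups, each gene centred on its own mean; colours end at 1.0. UBC8 and SPG5 are highest in LCY002 on ethanol/glycerol, and UBC5 and UBI4 are high on ethanol/glycerol in each strain.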

How the data were processed

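Messenger RNA was measured in 27 libraries, and groups were taken from the titles in the labels. Per the labels' protocols, total RNA came from a TRIzol extraction, oligo(dT) beads took the polyadenylated part, and random primers started the cDNA. The authors deposited RSEM expected counts and TPM for each gene. Per the submitters' processing notes, build R64, RSEM 1.2.8, Bowtie2 2.2.5 and HISAT2 2.1.0 were used. The sources used here do not say if the libraries keep the strand. Expected counts were rounded to whole numbers; 5980 of 5995 gene IDs matched the RefSeq annotation, and IDs without a match held at most 0.0332% of a library's counts. None of the 33 genes overlaps another gene. No replicate pair held identical values, and each differed by more than sampling noise. The SE and SD given include the spread between replicate libraries.

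Tests used edgeR 4.0.16 in R 4.3.3 (TMM, filterByExpr, robust quasi-likelihood fit, 9 group means, all 27 libraries), with Benjamini-Hochberg adjustment over 5692 genes in each comparison and calls below 0.05; the biological coefficient of variation was 0.0527. SE is the absolute log2 fold change divided by the square root of F. CPM are TMM-scaled, and TPM are the deposited values. The fit was checked on simulated counts. A criterion of that check, set for larger differences than those of the subunit genes, was not met as planned and was then loosened. The alternatives were DESeq2 1.42.0, a fit of the compared libraries alone, replicate blocks, each library left out in turn, every gene kept whatever its count, TMM factors from genes off the array, RLE size factors, and library totals as the scale.

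The members and lists were chosen with earlier results of these data known. Values in every library are given for RPN4. The subunit genes with the highest and lowest fold change in a comparison, and up to 4 called against the majority, were eligible for such values. Some of these, such as RPN6 and RPN2, are given without them. Of each related list up to 4 called genes by size were eligible, and those printed are a choice among them made with their values seen. Promoter windows are the 300 bases before the start codon in build R64, a placement chosen after the files were seen.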

Additional observations from a re-analysis of the deposited data

Results flagged for a closer look

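The effect of the strain differed between carbon sources, by an interaction term, for RPN4 and for subunit genes. RPN4 gave -0.46 (galactose minus glucose) and -0.27 (ethanol/glycerol minus glucose) for LCY001 against BY4741, and 0.59 and 0.92 for LCY002 against LCY001. The numbers of subunit genes called for the same 4 terms were 17, 17, 27 and 22 of 32. The subunit genes with the largest terms were SCL1 (-0.22), RPN12 (-0.25), RPT6 (0.35) and RPT6 again (0.45). These genes were picked for the size of their term. The 3 libraries of LCY001 on glucose enter each of the 4 terms, and their part in them was not tested.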

How the results depend on the processing

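Total counts as the scale turned the majority of called subunit genes in 6 comparisons: galactose against glucose in BY4741 (20 called), ethanol/glycerol against glucose in BY4741 (19) and LCY002 (24), LCY002 against LCY001 on galactose (12), and LCY002 against BY4741 on galactose (12) and ethanol/glycerol (15). The median of all genes tested moved in these comparisons by 0.12, 0.19, 0.17, -0.14, -0.09 and -0.07, in the same order. The direction of a count is that of its majority, a rule set after the splits were seen. Total counts also gave 7 in LCY001 and 30 in LCY002 for galactose against glucose, 24 and 2 for LCY001 against BY4741 on glucose and galactose, and 5 for LCY002 against LCY001 on ethanol/glycerol. RLE size factors gave 6 and 5 for galactose against glucose in BY4741 and LCY002, and 11 for the galactose interaction of LCY001 and BY4741. DESeq2 gave 7 and 6 for the first 2 of these. The compared libraries alone gave 8 for galactose against glucose in LCY002, 5 and 0 for LCY001 against BY4741 on galactose and ethanol/glycerol (7 of 32 for the latter at an unadjusted p below 0.05), 5 for LCY002 against BY4741 on ethanol/glycerol, and 11 for the same interaction. For RPN4, total counts gave 0.23 (galactose in BY4741), -0.13 (LCY001 against BY4741, galactose), -0.20 (LCY002 against LCY001, glucose) and 0.13 (LCY002 against BY4741, glucose), and the compared libraries alone gave 0.11 for galactose in BY4741 and -0.11 for LCY002 against LCY001 on glucose. The cause of these changes was not tested.

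Leaving out single libraries gave 9 to 18 calls for galactose against glucose in LCY002, 3 to 8 and 0 to 5 for LCY001 against BY4741 on galactose and ethanol/glycerol, 9 to 12 for LCY002 against LCY001 on galactose, 5 to 10 and 4 to 8 for LCY002 against BY4741 on galactose and ethanol/glycerol, and 10 to 18 for the galactose interaction of LCY001 and BY4741; RPN4 ran from -0.21 to -0.16 for LCY001 against BY4741 on galactose and from 0.15 to 0.21 for LCY002 against BY4741 on glucose. Without the 40 array genes in TMM and without the low-count filter, the 19 counts stayed within 1.5 times and RPN4 kept its calls. Of 88 results for other named genes that were checked in this way, 10 changed their call under some alternative and 0 changed sign.

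The replicate numbers did not pair the samples: of 27 same-numbered pairs within a strain 1 correlated over 0.1, and 2 of 27 within a carbon source. With a replicate block, 20 subunit genes were called for ethanol/glycerol against glucose in BY4741 and 25 for the galactose interaction of LCY002 and LCY001, no count moved by over 1.5 times, and RPN4 kept its calls.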
